A study of Macaca mulatta with 30 samples.

Results

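Expression of 9 neuropeptide precursor genes was measured in 3 regions of rhesus macaque cortex. They are SST, NPY, VIP, PDYN, PENK, TAC1, TAC3, CCK and CARTPT. A gene was included when a probe set on the array carried its symbol as the only annotated symbol. This gave 1 probe set for each of 9 of the 10 precursors sought, out of 15534 genes named in this way and 40489 probe sets in all. CRH, the precursor of corticotropin-releasing hormone, had no probe set listed under its symbol and was not analysed here. The rule uses gene symbols, not differences between samples, but the genes sought were chosen with earlier results of these data known.

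A neuropeptide precursor is a secretory protein that proprotein convertases cut into 1 or more short peptides, which are stored in large dense-core vesicles and released on strong or repeated firing. The peptides act on G protein-coupled receptors and modulate transmission over a wider range than classical transmitters do. In cortex most of these genes mark classes of GABAergic interneuron: SST, NPY and VIP label separate or overlapping classes, TAC1, TAC3, PDYN, PENK and CRH occur in subsets of these, and CCK is made both by interneurons and by many pyramidal cells.

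The tissue was frozen cortex taken after death from 5 animals, for which the labels name no treatment or genetic change. Animals 1, 2 and 3 were females of 7.3, 5.5 and 8.6 years, and animals 4 and 5 were males of 4.2 and 2.0 years, so sex and age go together with the animal and were not tested. Each animal gave tissue from the left and the right hemisphere of 3 regions: VFC, ventrolateral prefrontal cortex that corresponds to part of human Broca's area; STC, superior temporal cortex at the site that matches Wernicke's area; and M1C, primary motor cortex where it controls the forelimb. The 30 arrays therefore form 6 groups of 5, and the study compared the hemispheres. Values are log2 intensities after RMA, a method that corrects background, brings all arrays to 1 distribution and summarises the probes of a set. Such values compare 1 gene across samples, and levels of different genes are not compared here.

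Medians of the 30 arrays lay between 6.57 and 6.64, and the mean level of 11 excitatory neuron genes lay between 8.64 and 9.01 on every array. Labels of 2 arrays were in doubt. Over all tested probe sets, 28 of 30 arrays resembled most the other arrays of their own animal. The array labelled M1C left of animal 3 had a median correlation of -0.058 with that animal's other arrays and 0.15 with those of animal 4. The array labelled STC right of animal 4 had 0.062 with its own animal and 0.35 with animal 3. On the first of these, labelled female, the Y-linked gene EIF1AY read 8.34, and on the second, labelled male, it read 7.25. The other arrays labelled female read 6.83 to 7.87 and the others labelled male 8.29 to 8.57. Results are given with all 30 arrays under their labels and then without these 2 arrays. A wider alternative left out 4 arrays, these and 1 more of each animal (right STC of animal 3, left VFC of animal 4). Because whole tissue was extracted, fewer cells of a type and less RNA per cell cannot be told apart in any result below.

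PDYN and SST were higher in both prefrontal and temporal cortex than in motor cortex. CARTPT also passed as higher in prefrontal cortex, but it met the filter on low values narrowly, through the regions where it is high, and its call was lost without that filter. Both SST calls lay close to the threshold and were lost without the filter too, so only PDYN kept its calls there. In all, 3 of 9 genes for VFC and 2 of 9 for STC passed an adjusted p of 0.05 in limma, a linear model fitted to all probe sets with the animal as block, after both hemispheres of an animal were averaged. Of all 24292 tested probe sets, 10.5% passed for VFC against M1C in either direction and 5.19% passed as higher in VFC. For STC against M1C, 2.36% passed and 1.22% passed as higher in STC. When the 2 doubted arrays were left out, 4 of 9 genes passed as higher in VFC, where 7.17% of all probe sets did. The same setting gave 5 of 9 genes as higher in STC, against 5.96% of all. Leaving out 4 arrays gave the same counts of 4 and 5, against 7.18% and 5.64%. CARTPT, with its narrow pass of the filter, is among the genes counted in each of these settings with arrays left out. The estimated difference was above 0 for 9 of 9 genes in VFC and for 8 of 9 in STC. The median over the 9 genes was 0.18 on the log2 scale for VFC against M1C and 0.17 for STC against M1C, and the medians over all tested probe sets were 0.0028 and 0.0047. With the 2 doubted arrays left out, the medians over the 9 genes were 0.27 in both comparisons. Both comparisons use the same M1C arrays.

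**Figure D1:**
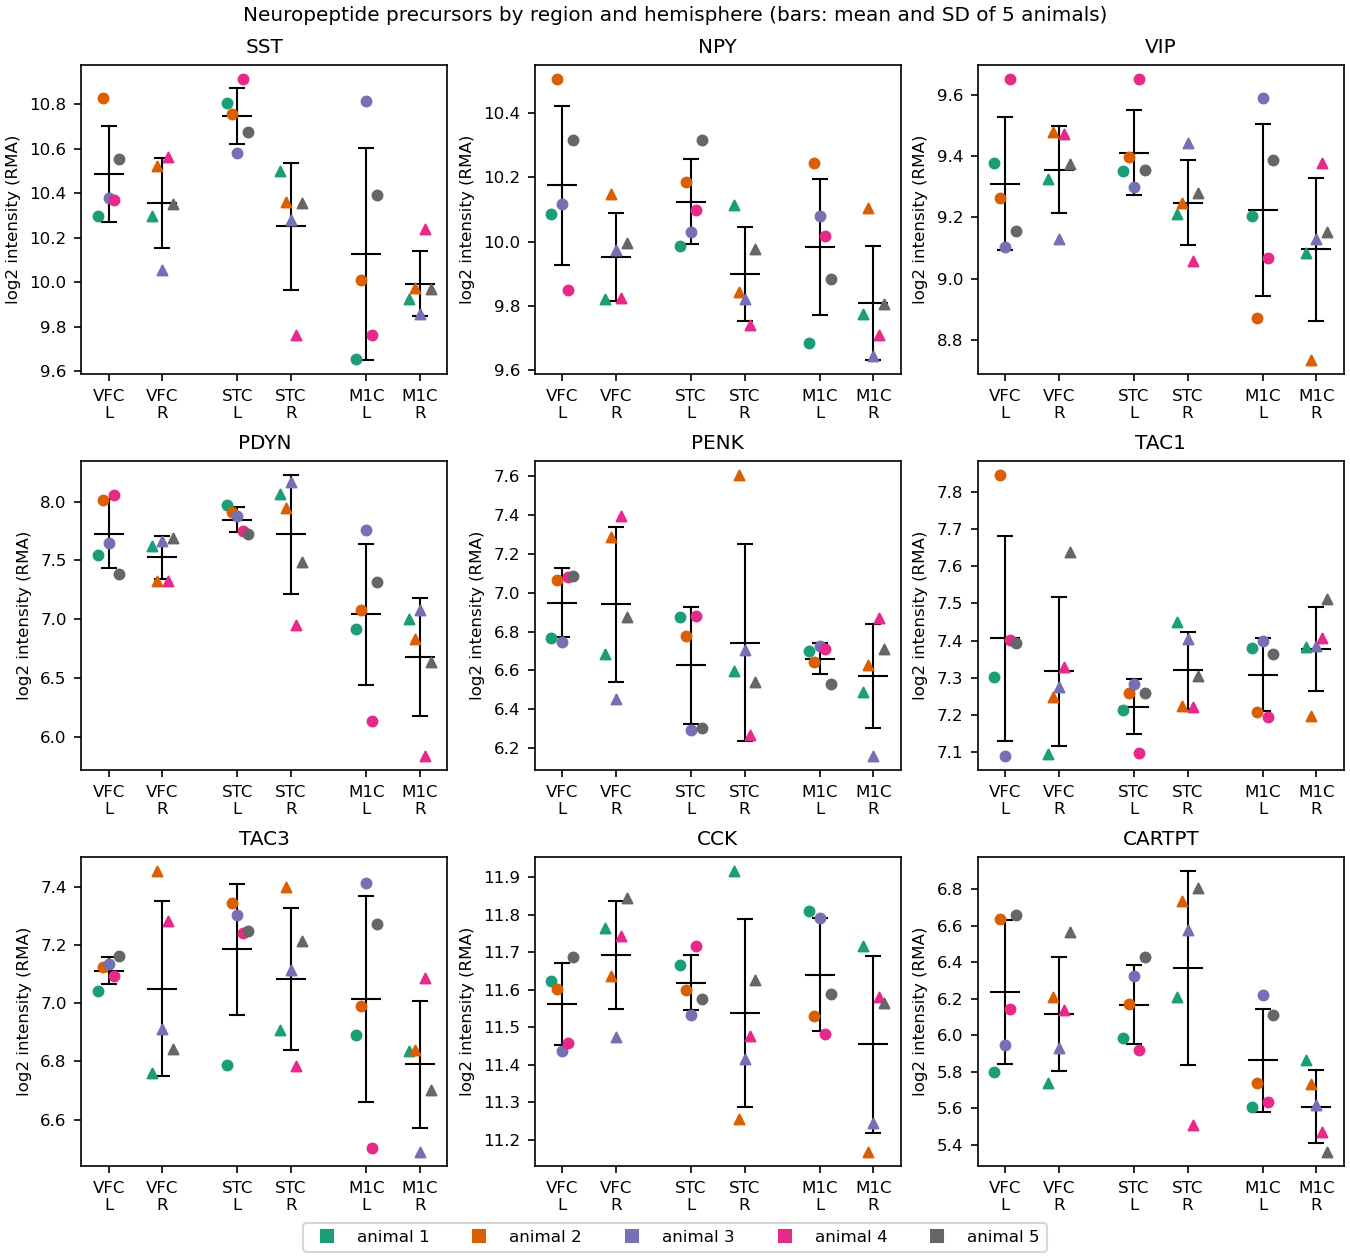
Log2 intensity (vertical axis) of the 9 precursor genes on each of the 30 arrays, 1 panel per gene, by region and hemisphere; each point is 1 animal, the line in a group is its mean and the bar its standard deviation (n = 5), with circles for left and triangles for right arrays. PDYN reached 5.84 on the lowest M1C array and 8.16 on the highest STC array, the widest range of the 9 genes.

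PDYN (probe set 13612278) encodes prodynorphin, the source of the dynorphins, which act mainly on the kappa opioid receptor. In M1C its log2 value in animals 1 to 5 was 6.92, 7.08, 7.76, 6.13 and 7.32 on the left and 7.01, 6.83, 7.08, 5.84 and 6.64 on the right. In VFC it was 7.54, 8.01, 7.64, 8.05 and 7.39 on the left and 7.63, 7.33, 7.66, 7.32 and 7.69 on the right. In STC it was 7.97, 7.91, 7.88, 7.75 and 7.72 on the left and 8.07, 7.94, 8.16, 6.95 and 7.49 on the right. Animal 4 had the lowest motor values, and the highest motor value and the lowest temporal value fell on the 2 arrays in doubt. Averaged over hemispheres, all 5 prefrontal values lay above all 5 motor values, while the temporal and motor values overlapped. Such a complete separation with the higher values in VFC occurred in 2.54% of all tested probe sets, and the separation with higher values in STC in 1.16%.

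PDYN rose from M1C to VFC by 0.77 ± 0.15 on the log2 scale (moderated SE, n = 5 animals, 1.70-fold, adjusted p = 0.00905 in limma). From M1C to STC it rose by 0.92 ± 0.15 (1.90-fold, adjusted p = 0.0144). Each of 5 animals showed both directions. VFC and STC did not differ past the threshold (-0.16, 95% interval -0.49 to 0.17, adjusted p = 0.726). With those 2 arrays left out, the PDYN values ran from 7.32 to 8.05 in VFC, from 7.49 to 8.16 in STC and from 5.84 to 7.32 in M1C. No STC array then reached down to an M1C array, and the differences from M1C were 0.83 for VFC (adjusted p = 0.00205) and 1.07 for STC (adjusted p = 0.000805). Leaving out animal 1 or 2 moved the PDYN difference in STC little, to 0.89 and 0.91, but the adjusted p rose to 0.101 and 0.0877, in settings where 2 of the 24292 probe sets passed. The VFC call stayed under 0.05 without any 1 animal. On right hemisphere arrays alone PDYN was higher in STC than in M1C by 0.85 to 1.11 in the 5 animals, and on left arrays alone by 0.11 to 1.62 (adjusted p = 0.265).

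PENK (probe set 13791822) encodes proenkephalin, the source of the enkephalins, which act on delta and mu opioid receptors. In VFC its value in animals 1 to 5 was 6.77, 7.06, 6.75, 7.08 and 7.09 on the left and 6.69, 7.29, 6.45, 7.40 and 6.88 on the right. In M1C it was 6.70, 6.64, 6.73, 6.71 and 6.53 on the left and 6.49, 6.63, 6.16, 6.87 and 6.71 on the right. In STC it was 6.88, 6.78, 6.29, 6.88 and 6.31 on the left and 6.60, 7.61, 6.71, 6.27 and 6.54 on the right. All 3 regions overlapped, and the highest value of all came from the right STC of animal 2. The VFC value exceeded the M1C value in 5 of 5 animals, by 0.33 ± 0.11, but missed the threshold (adjusted p = 0.0727 in limma, n = 5). It passed without the 2 doubted arrays, at 0.39 (adjusted p = 0.0130). The STC to M1C difference of PENK was 0.07 (95% interval -0.16 to 0.30, adjusted p = 0.783), so the order was VFC, then STC and M1C, with no neighbour in that order separated by the test (VFC against STC 0.26 ± 0.11, adjusted p = 0.308).

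SST (probe set 13715730) encodes somatostatin, the peptide of dendrite-targeting interneurons. In M1C its value in animals 1 to 5 was 9.65, 10.01, 10.81, 9.76 and 10.39 on the left and 9.92, 9.98, 9.86, 10.24 and 9.97 on the right. In VFC it was 10.30, 10.83, 10.38, 10.37 and 10.55 on the left and 10.30, 10.52, 10.06, 10.56 and 10.35 on the right. In STC it was 10.80, 10.75, 10.58, 10.91 and 10.67 on the left and 10.50, 10.36, 10.28, 9.76 and 10.35 on the right. The single motor value above 10.39 and the single temporal value below 10.28 were those of the 2 doubted arrays. Averaged over hemispheres, all 5 STC values lay above all 5 M1C values, but by a very small margin. The lowest STC value was 10.337 (animal 4) and the highest M1C value 10.335 (animal 3), and each includes a doubted array. Such a separation occurred in 1.16% of all tested probe sets. The VFC and M1C values overlapped.

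SST rose by 0.44 ± 0.10 from M1C to STC (1.35-fold, higher in 5 of 5 animals, adjusted p = 0.0481 in limma, n = 5). From M1C to VFC it rose by 0.36 ± 0.10 (1.28-fold, higher in 4 of 5 animals, adjusted p = 0.0435). Both calls lie close to the threshold, and with no filter on low values the adjusted p of SST was 0.109 for STC and 0.0919 for VFC. The STC call was lost when animal 1, 2, 4 or 5 was left out and the VFC call likewise, with adjusted p of up to 0.211 and 0.197. Calls fell over all probe sets in these settings, to between 0.00823% and 1.05% for STC and between 4.11% and 6.74% for VFC. Leaving out the 2 doubted arrays instead, the differences were 0.65 for STC (adjusted p = 0.000591) and 0.46 for VFC (adjusted p = 0.00284). In that setting SST ran from 10.28 to 10.91 in STC and from 9.65 to 10.39 in M1C. VFC and STC differed by -0.08 (95% interval -0.30 to 0.15).

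CARTPT (probe set 13760943) encodes the precursor of cocaine- and amphetamine-regulated transcript peptides. It passed the filter narrowly, with a mean of 6.06 over the 30 arrays against a minimum of 6.04, and its M1C mean of 5.74 lay below that minimum, so it was tested through its VFC and STC arrays and had to differ between regions to be tested. In M1C the values in animals 1 to 5 were 5.61, 5.74, 6.22, 5.64 and 6.11 on the left and 5.87, 5.73, 5.62, 5.47 and 5.36 on the right. In VFC they were 5.80, 6.64, 5.95, 6.14 and 6.66 on the left and 5.74, 6.21, 5.93, 6.14 and 6.57 on the right. In STC they were 5.99, 6.17, 6.33, 5.92 and 6.43 on the left and 6.21, 6.73, 6.58, 5.51 and 6.81 on the right. The regions overlapped. Animals 2 and 5 had the highest prefrontal values, and animals 1 and 3 differed between VFC and M1C by 0.03 and 0.02 after averaging their hemispheres.

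The CARTPT value in VFC exceeded that in M1C by 0.44 ± 0.13 (1.36-fold, 5 of 5 animals, adjusted p = 0.0489 in limma, n = 5). With no filter on low values its adjusted p was 0.1004. The STC to M1C difference was larger, 0.53 ± 0.13 (5 of 5 animals), but missed the threshold at an adjusted p of 0.0547. Both passed without the 2 doubted arrays, at 0.50 (adjusted p = 0.00879) and 0.63 (adjusted p = 0.00362). These fits kept the filter that CARTPT met through its VFC and STC arrays, so they carry the same limit. A fit without both the filter and those arrays was not run. The VFC call was lost without animal 2, 4 or 5 (adjusted p up to 0.197), where 4.11% to 5.77% of all probe sets passed.

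VIP (probe set 13748448), the vasoactive intestinal peptide of interneurons that target other interneurons, ran from 9.10 to 9.65 in VFC, from 9.06 to 9.65 in STC and from 8.73 to 9.59 in M1C. Its lowest motor values were those of animal 2, 8.87 on the left and 8.73 on the right, and its highest was the doubted array of animal 3. The difference from M1C was 0.17 ± 0.091 for both VFC (adjusted p = 0.275) and STC (adjusted p = 0.337), and neither passed. The STC difference passed without the 2 doubted arrays, at 0.27 (adjusted p = 0.0378).

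TAC3 (probe set 13625903) encodes the precursor of neurokinin B, the preferred ligand of the receptor TACR3. Its values ran from 6.76 to 7.45 in VFC, from 6.79 to 7.40 in STC and from 6.49 to 7.41 in M1C, and the regions overlapped. The STC to M1C difference was 0.23 ± 0.071 with all arrays (4 of 5 animals, adjusted p = 0.1) and 0.37 without the 2 doubted arrays (adjusted p = 0.0141). The VFC to M1C difference was 0.18 ± 0.071, higher in 5 of 5 animals (adjusted p = 0.141).

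NPY (probe set 13735015), neuropeptide Y, ran from 9.82 to 10.51 in VFC, from 9.74 to 10.32 in STC and from 9.64 to 10.25 in M1C. Its VFC to M1C difference was 0.17 ± 0.069 (adjusted p = 0.150) and its STC to M1C difference 0.12 (95% interval -0.03 to 0.27, adjusted p = 0.387). Without the 2 doubted arrays these were 0.21 (adjusted p = 0.0932) and 0.20 (adjusted p = 0.124).

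TAC1 and CCK varied least between regions. TAC1 (probe set 13735408), the precursor of substance P and neurokinin A, had region means of 7.36, 7.27 and 7.34 in VFC, STC and M1C. Its differences were 0.02 for VFC against M1C (95% interval -0.14 to 0.18) and -0.07 for STC against M1C (95% interval -0.23 to 0.09). CCK (probe set 13706329), cholecystokinin, had region means of 11.63, 11.58 and 11.55. It differed by 0.08 in VFC against M1C (95% interval -0.04 to 0.19) and by 0.03 in STC against M1C (95% interval -0.08 to 0.15).

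**Figure D2:**
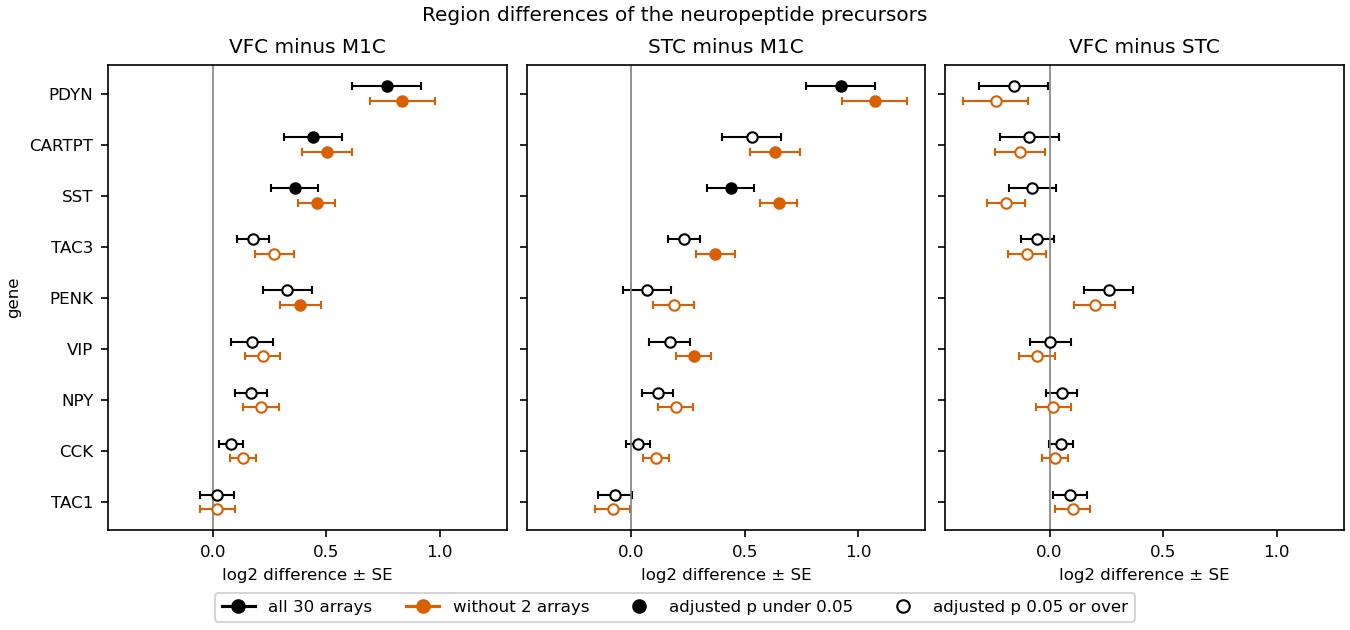
Differences between regions on the log2 scale (horizontal axis) for the 9 genes, with all 30 arrays and without the 2 arrays in doubt, 1 panel per pair of regions; symbols are the fitted difference (n = 5 animals), bars its standard error from limma, and filled symbols passed an adjusted p of 0.05. PDYN, SST and CARTPT lie furthest to the right against M1C, and the panel of VFC against STC centres near 0.

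Prefrontal and temporal cortex were not separated by any of these genes. None of the 9 passed for VFC against STC, where 0.214% of all tested probe sets did, and the estimate was below 0 for 4 of 9. The largest estimate was that of PENK (0.26 ± 0.11, higher in VFC in 3 of 5 animals, 95% interval 0.03 to 0.49). The next was PDYN at -0.16.

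The region differences were also taken within 1 hemisphere at a time. For PDYN, VFC exceeded M1C by 0.69 ± 0.81 on the left (SD, n = 5 animals) and by 0.85 ± 0.42 on the right. For SST the STC to M1C difference was 0.62 ± 0.60 on the left and 0.26 ± 0.42 on the right. The SST difference turned negative only on the left in animal 3 (-0.23) and on the right in animal 4 (-0.48), the pairs that hold a doubted array. With only left arrays 0 of 9 genes passed in either comparison, where 0.0123% of all probe sets passed for VFC and 0.0% for STC. On left arrays without the doubted one, every call made with all arrays held, and 4.66% and 1.14% of all passed. With only right arrays 1 of 9 passed in each, PDYN, against 4.72% and 0.103% of all. On right arrays without the doubted one, CARTPT lost its VFC call (adjusted p = 0.0638 in limma), and TAC3 and CARTPT passed in STC. There 7.51% and 3.8% of all passed. The settings without a doubted array were chosen after seeing the data.

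The left to right comparison, the question of the study, gave no call. No precursor passed over all regions, in VFC, in STC, in M1C or in the test of whether the hemisphere difference varied between regions. The share of all tested probe sets that passed was 0.0% in each of these 5 tests of limma. At an unadjusted p under 0.05 the numbers were 1608 probe sets over all regions, 869 in VFC, 1133 in STC, 1367 in M1C and 912 in the interaction. Over all regions the estimate was higher on the left for 7 of 9 precursors, with a median of 0.08 on the log2 scale and of 0.0033 over all tested probe sets. Without the 2 doubted arrays it was higher on the left for 5 of 9, with a median of 0.0017.

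NPY and SST had the smallest p of the precursors between hemispheres. In VFC the NPY value in animals 1 to 5 was 10.09, 10.51, 10.12, 9.85 and 10.32 on the left and 9.82, 10.15, 9.97, 9.82 and 9.997 on the right. In STC it was 9.99, 10.19, 10.03, 10.10 and 10.32 on the left and 10.11, 9.84, 9.82, 9.74 and 9.98 on the right. In M1C it was 9.68, 10.25, 10.08, 10.02 and 9.88 on the left and 9.77, 10.11, 9.64, 9.71 and 9.81 on the right. The left value was the higher in 13 of 15 pairs, the exceptions being STC and M1C of animal 1, and the 2 sides overlapped in every region. Averaged over regions, the left exceeded the right in 5 of 5 animals, as it did for 4.61% of all tested probe sets.

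The mean NPY difference was 0.21 ± 0.046 (1.15-fold, n = 5 animals, unadjusted p = 0.00166 and adjusted p = 0.449 in limma). By region it was 0.22 in VFC, 0.23 in STC and 0.17 in M1C. Without the 2 doubted arrays the left was higher in 11 of 13 pairs and the mean was 0.18 (adjusted p = 0.783). Hemisphere accounted for 25.6% of the variance of NPY over the 30 arrays under their labels, where the median of all tested probe sets was 1.30%. NPY was picked by its small p between hemispheres, so a share above that median follows from the choice.

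SST was higher on the left in 12 of 15 pairs and in 5 of 5 animals averaged over regions, by 0.25 ± 0.066 (adjusted p = 0.522 in limma, n = 5). In STC the left exceeded the right by 0.30, 0.40, 0.30, 1.15 and 0.32 in animals 1 to 5. The value of animal 4, the pair with a doubted array, stood apart from the other four. Without the 2 doubted arrays the STC difference of SST was 0.33, still higher on the left in each remaining pair, and the mean over regions fell to 0.11 (adjusted p = 0.998). In M1C the sign of SST turned, from 0.13 to -0.07, when those arrays were left out. Marker lists also leaned to one side in STC with no gene past the threshold, and their part was not tested. The left estimate was the lower for 10 of 10 meningeal and choroid plexus genes, with a median of -0.32 with all arrays and without the 2 in doubt. It was the lower for 12 of 12 oligodendrocyte genes (median -0.13), and for 6 of 12 without those arrays (median -0.0013). It was the higher for 10 of 11 excitatory neuron genes (median 0.08), and for 7 of 11 without those arrays (median 0.03).

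Of the other precursors, PDYN was higher on the left by 0.23 in 4 of 5 animals (adjusted p = 0.691) and VIP by 0.08 in 5 of 5 animals (adjusted p = 0.748). These became 0.16 and 0.0017 without the 2 doubted arrays. CCK was lower on the left in VFC in 5 of 5 animals, by 0.13 (95% interval -0.32 to 0.06), and CARTPT was higher there in 5 of 5 animals by 0.12 (95% interval -0.17 to 0.40). For CARTPT the sides were nearly equal in animal 4 (6.143 left and 6.140 right), and animal 2 had the widest gap (6.64 and 6.21). The share of all probe sets with 5 of 5 animals in 1 direction in VFC is not given here. PENK, TAC1 and TAC3 differed between hemispheres by -0.0052, -0.03 and 0.13 over all regions.

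**Figure D3:**
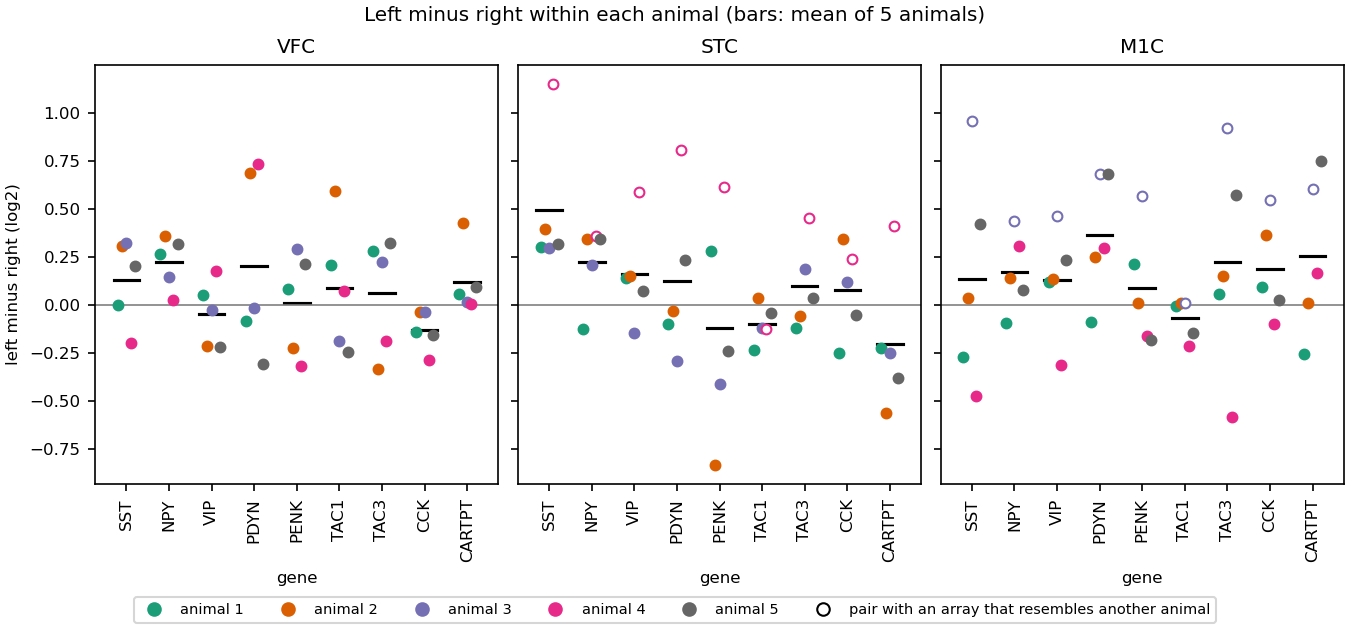
Left minus right difference on the log2 scale (vertical axis) of the 9 genes in VFC, STC and M1C; each point is 1 animal, the line is the mean of 5 and open circles mark the pairs that hold an array in doubt. NPY lies above 0 in 13 of 15 pairs, and the SST pair of animal 4 in STC stands at 1.15.

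The share of variance due to region, animal and hemisphere differed from gene to gene. Region accounted for 52.3% of the variance of PDYN, 34.2% of CARTPT and 31.1% of SST, against a median of 8.73% over all tested probe sets. These are the genes called between regions with all arrays, so a share above that median follows from the choice. CARTPT also met the filter only through the regions where it is high. The animal accounted for 37.7% of CCK, 28.0% of NPY and 27.2% of PENK, against a median of 22.9%. It accounted for 3.32% of SST. For TAC1, 84.1% of the variance was due to none of the 3. These shares are descriptions with no test.

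Genes whose levels ran most alike over the 30 arrays were found by Pearson correlation among 10943 tested genes, as a description, since the arrays share animals and regions. Symbols that begin with LOC, ENSMMU or MGC or that contain orf were left out of this ranking. The nearest to SST were SGIP1 (r = 0.89), TMEM108 (r = 0.88) and PHACTR1 (r = 0.87). The nearest to PDYN were CAMK2D (r = 0.89), TSHZ2 (r = 0.87) and the neuropeptide Y receptor gene NPY5R (r = 0.86). CARTPT ran most like PTPRR and EPHA3 (r = 0.81 each), and NPY most like CCDC88C (r = 0.78). The highest r for TAC1 was 0.68, with METAP1, the lowest such value of the 9 genes.

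Some receptors for these peptides also differed between regions. Of 23 receptor genes 19 were tested. In VFC 5 were higher and 0 lower than in M1C, while in STC 3 were higher and 0 lower. Of all tested probe sets, 5.19% passed as higher in VFC and 1.22% as higher in STC. The median difference over the 19 receptor genes was 0.12 in VFC and 0.07 in STC. NPY5R and NPY1R, receptors of neuropeptide Y, passed in both comparisons. NPY5R was higher by 0.65 ± 0.091 in VFC (adjusted p = 0.00219 in limma, n = 5) and by 0.46 in STC (adjusted p = 0.0273). NPY1R was higher by 0.65 ± 0.103 in VFC (adjusted p = 0.00372) and by 0.52 in STC (adjusted p = 0.0268). NPY2R, the presynaptic type, was higher by 0.24 in VFC (adjusted p = 0.0351).

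SSTR1, a somatostatin receptor, was higher in VFC by 0.59 ± 0.106 (5 of 5 animals, adjusted p = 0.00575). In STC its difference was 0.06 (adjusted p = 0.800), and the difference between VFC and STC itself was 0.53 (adjusted p = 0.0635) with all arrays and 0.50 without the 2 in doubt (adjusted p = 0.0351). CCKBR, the main cholecystokinin receptor of brain, was higher in VFC by 0.29 ± 0.0677 (adjusted p = 0.0166), while CCK itself did not pass. OPRM1, the mu opioid receptor, was higher in STC by 0.20 ± 0.0457 (adjusted p = 0.0402). OPRK1, the kappa receptor on which dynorphins act, had -0.10 in VFC (adjusted p = 0.533) and -0.15 in STC (adjusted p = 0.374), beside the higher PDYN of both regions. TACR3, the receptor of the TAC3 product, had 0.47 in STC (5 of 5 animals, adjusted p = 0.0578). With the 2 doubted arrays left out, 7 receptor genes were higher and 0 lower in each comparison. TACR3, SSTR2, CCKBR and CRHR1 were added in STC, and CRHR1 and OPRM1 in VFC. In that setting 7.17% of all tested probe sets passed as higher in VFC and 5.96% as higher in STC.

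**Figure D4:**
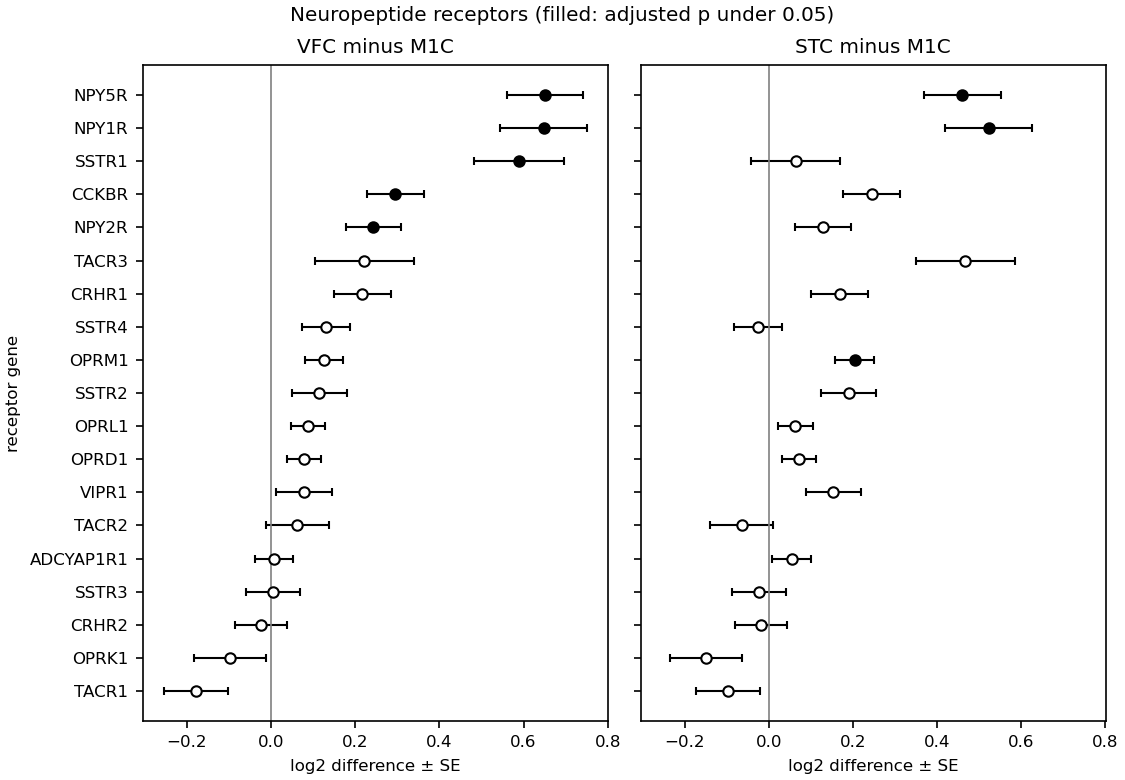
Differences from M1C on the log2 scale (horizontal axis) of the 19 tested receptor genes in VFC and in STC; symbols are the fitted difference with all 30 arrays, bars its standard error (limma, n = 5 animals), and filled symbols passed an adjusted p of 0.05. NPY5R and NPY1R stand highest in VFC, at 0.65 each.

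The machinery that cuts and stores the peptides did not move one way. Of 21 such genes 15 were tested, 1 was higher and 3 were lower in VFC than in M1C, and 0 passed in STC. The lower ones were CHGA, the granule protein chromogranin A (-0.30 ± 0.0469, adjusted p = 0.0037), CADPS2, a priming factor of dense-core vesicles (-0.41 ± 0.0843, adjusted p = 0.0104), and PCSK1N, an inhibitor of the convertase PCSK1 (-0.25 ± 0.0637, adjusted p = 0.0266). The higher one was PTPRN, a membrane protein of dense-core vesicles (0.20 ± 0.057, adjusted p = 0.0458). The median over the 15 genes was -0.04 in VFC and -0.05 in STC. Of all tested probe sets, 10.5% passed in either direction in VFC and 2.36% in STC.

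Among 35 other precursor genes, 17 were tested. AGT, angiotensinogen, which astrocytes make in brain, was higher than in M1C by 0.81 in VFC (adjusted p = 0.00118) and by 0.73 in STC (adjusted p = 0.0114). PNOC, the precursor of nociceptin, was higher in VFC by 0.23 ± 0.0648 (5 of 5 animals, adjusted p = 0.0415), and had 0.24 in STC (adjusted p = 0.0721). No other gene of the list passed, and its median was 0.014 in VFC and 0.011 in STC.

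Some markers of cell types differed in the same comparisons, and their part in the precursor differences was not tested. The counts below stand beside 10.5% of all tested probe sets that passed in either direction in VFC and 2.36% in STC. In STC that share rose to 12.6% without the 2 doubted arrays. All 12 measured genes of oligodendrocytes and myelin were lower in VFC than in M1C, with a median of -0.89, and 1 of 12 passed as lower in STC, with a median of -0.41. Without the 2 doubted arrays, 9 of 12 passed as lower in STC, with a median of -0.57. The mean level of that list ran from 7.97 to 9.32 over the VFC arrays, from 8.72 to 9.97 in STC and from 8.97 to 10.04 in M1C. Of 10 astrocyte genes 3 were lower in VFC and 2 in STC, and of 10 vascular genes likewise 3 and 2; without the 2 doubted arrays 4 astrocyte and 5 vascular genes passed as lower in STC. Of 10 meningeal and choroid plexus genes 3 were higher in VFC and 0 in STC, and of 7 microglial genes 0 passed.

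The few interneuron markers that passed went in both directions. Of 24 interneuron genes, TAC1 among them, 3 were higher and 1 was lower in VFC, and 0 passed in STC. Without the 2 doubted arrays 4 were higher and 2 lower in STC. Of all tested probe sets, 10.5% passed in VFC (1261 higher, 1293 lower) and 2.36% in STC. Without the 2 doubted arrays 12.6% of all passed in STC. With all arrays the median difference over the 24 genes was -0.02 in VFC and -0.03 in STC. The list mean ran from 7.91 to 8.11 in M1C, from 7.97 to 8.11 in VFC and from 7.97 to 8.12 in STC. GAD1 and GAD2, the enzymes that make GABA, had -0.03 and 0.01 in VFC and neither passed. LHX6, a transcription factor of the lineage that includes SST cells, had -0.03 in VFC and 0.05 in STC. PVALB, the marker of fast-spiking interneurons, fell by 0.93 from M1C to VFC (adjusted p = 0.00179), while HTR3A, NR2F2 and CNR1, which occur in the classes that hold VIP and CCK cells, were higher there by 0.75, 0.29 and 0.27. These genes are picked from a list with a median of -0.02 in VFC, and a shift of any class was not tested. CHODL and NOS1, which mark the SST cells that also make NPY, had -0.27 (adjusted p = 0.0520) and -0.08 (adjusted p = 0.430) in VFC. Of 11 excitatory neuron genes 3 were higher in VFC and 1 in STC, where 5.19% and 1.22% of all tested probe sets passed as higher. Without the 2 doubted arrays 4 were higher and 1 lower in STC.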

How the data were processed

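The authors deposited log2 intensities for 30 arrays in a single table, made by RMA with the package oligo, per the submitters' processing notes, which give no version. The array's genome build is not given in the sources used here, so no coordinates are printed. Probe sets with a mean above the 40th percentile (6.04) were tested, 24292 of 40489. Models were fitted with limma 3.58.1 (R 4.3.3, version 1.17.8 of data.table). Region comparisons averaged both hemispheres of an animal and used the animal as block. Left to right comparisons used differences within animals. P-values were two-sided and adjusted by Benjamini-Hochberg over all tested probe sets, with a threshold of 0.05. The ind number in the labels marks the animal and so pairs the arrays. Intervals are 95% intervals from the moderated fit. The fits were also run on simulated arrays of this design with planted differences and no exchanged labels. That run checks the code and not these results, and its outcome is not given here. The members and gene lists were chosen with earlier results of these data known. All 9 measured members were named, and list genes at adjusted p under 0.05, with receptors and interneuron markers that bear on a member. Alternatives were the filter, the block, the prior, the averaging of probe sets, leaving out each animal, 1 hemisphere alone, and leaving out 2 or 4 arrays. Arrays have no read depth, and the number of animals limits the precision.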

Additional observations from a re-analysis of the deposited data

Results flagged for a closer look

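In 54 groups of 5 arrays (9 genes, 6 groups), 2 held an array that stood apart from the other four by more than 0.71 of the group's range; chance gives about 1 in 20 groups. VIP in the left STC of animal 4 was 9.65, with the others between 9.30 and 9.40 (0.719 of the range). TAC3 in the left STC of animal 1 was 6.79, with the others between 7.24 and 7.34 (0.813 of the range).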

How the results depend on the processing

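The number of precursors called is small and moved with the setting, as did the share of all probe sets called. For VFC against M1C it was 3 and became 1 with no filter, 1 with no replicate block for the animal, 0 on left hemisphere arrays and 1 on right hemisphere arrays, and 1 to 3 when 1 animal was left out. For STC against M1C it was 2 and became 5 without 2 arrays and without 4, 1 with no filter, 0 with no replicate block, 0 on left arrays, 1 on right arrays, 4 on right arrays without the 2 arrays (a setting chosen after seeing the data), and 0 to 2 when 1 animal was left out. Over all probe sets, 10.5% were called for VFC against M1C with all arrays, 4.14% with no filter, 3.43% with no replicate block, 0.0123% on left and 4.72% on right arrays. For STC against M1C the shares were 2.36%, 0.304%, 0.0%, 0.0% and 0.103%, and 2 of 24292 probe sets were called without animal 1 or without animal 2. On left arrays without the 2 arrays, also chosen after seeing the data, every call made with all arrays held, with shares of 4.66% and 1.14%. Wherever a single gene remained for either comparison, it was PDYN. With the animal as random block (correlation 0.17) and with a trended robust prior, CARTPT also passed in STC (adjusted p = 0.0133 and 0.0402). Both kept the filter that it met narrowly. A stricter filter at 7.13 left TAC3, PENK and CARTPT untested, and averaging probe sets changed no call, since each gene has 1. All other left to right results stayed without a call. Signs turned only for estimates that did not pass, and the cause was not tested.

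Between regions, without the 2 arrays VIP in VFC minus STC turned to -0.056, and without 4 arrays to -0.059, with NPY at -0.0068. On left arrays it was -0.10 (also without the 2 arrays) for VIP, and PENK in STC minus M1C was -0.035. CCK on left arrays was -0.080 and, without the 2 arrays, -0.016 in VFC minus M1C, -0.022 in STC minus M1C, and -0.057 in VFC minus STC in both settings. CARTPT in VFC minus STC was 0.071 in both. On right arrays SST in VFC minus STC was 0.11, TAC1 in VFC minus M1C was -0.059 (also without the 2 arrays), and TAC1 in VFC minus STC was -0.0036 and, without the 2 arrays, -0.034. PENK in VFC minus STC was -0.017 on right arrays without the 2 arrays.

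Between hemispheres, leaving out the 2 arrays turned SST in M1C to -0.072, PDYN in STC to -0.045, PENK in M1C to -0.028, and CCK and CARTPT over all regions to -0.018 and -0.012. Leaving out 4 arrays gave SST in M1C -0.072, PENK in M1C -0.028, VIP, TAC3 and CCK over all regions -0.035, -0.012 and -0.014, and TAC3 in STC -0.048.

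Leaving out 1 animal gave ranges that crossed 0 in left minus right for SST in M1C (-0.072 to 0.29), PDYN in STC (-0.045 to 0.23), TAC3 in VFC (-0.0036 to 0.16), TAC1 over all regions (-0.085 to 0.0044) and in VFC (-0.037 to 0.17), and PENK over all regions (-0.055 to 0.080), in VFC (-0.061 to 0.091), in STC (-0.30 to 0.062) and in M1C (-0.028 to 0.16). Between regions they did so in VFC minus STC for NPY (-0.013 to 0.090), VIP (-0.047 to 0.068) and CARTPT (-0.22 to 0.017), in STC minus M1C for PENK (-0.053 to 0.14) and in VFC minus M1C for TAC1 (-0.062 to 0.076).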
